A study of Mus musculus with 4 samples.

Results

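The 9 genes described here are Nlrp4a, Nlrp4b, Nlrp4c, Nlrp4e, Nlrp4f, Nlrp9a, Nlrp9b, Nlrp9c and Nlrp14, members of the Nlrp gene family that mouse oocytes express. They were taken by symbol, and all 9 are found among the 16861 genes listed, in every library, and among the 11672 genes tested. RNA was measured in germinal vesicle (GV) oocytes, which are held in the first meiotic prophase, from 3-week-old female C57BL/6J mice. Oocytes freed of cumulus cells were stained with a Hoechst DNA dye, in medium with milrinone, which holds them at this stage, and sorted under ultraviolet light into NSN (non-surrounded nucleolus) and SN (surrounded nucleolus) oocytes, names that say whether a rim of DNA stain encloses the nucleolus. Each configuration has 2 libraries, each made by Smart-seq2 (oligo(dT) priming and PCR) from a pool of 15 oocytes without their zona pellucida, and the comparison asks which transcripts differ in level between the configurations. The protocol speaks of 3 samples in a group, and 2 libraries of each were analysed here. The libraries held 17408945 and 17911559 read pairs for the NSN replicates (1, then 2, as in all pairs of values below), and 17069772 and 17998361 for the SN replicates. Values are FPKM, read pairs scaled to the length of the gene and the read pairs of the library. Nothing in the sources used here says that the replicates came from separate animals, so p-values measure the spread between these libraries.

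NLRP proteins carry a NACHT domain, which binds nucleotides, and a row of leucine-rich repeats, usually behind a pyrin domain that contacts partner proteins. Some members, such as NLRP3, assemble inflammasomes in immune cells, whereas a group of relatives is stored by growing oocytes as maternal transcripts or proteins for the early embryo. NLRP5 (MATER) is the best known of these, a core part of the subcortical maternal complex beneath the egg membrane, and maternal loss of NLRP14 also stops early embryos.

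Of the 9 members, Nlrp14 and Nlrp4c were lower in SN than in NSN oocytes past both thresholds (an adjusted p under 0.05 from limma across all genes and a fold of at least 1.2), and none was higher past them. These 2 of 9 stand beside 7.93% of the 11672 genes tested that passed in either direction, and 1.98% that passed with lower values in SN. The members are more abundant than many of these genes, and among the 5519 genes whose mean FPKM was 5 or more, tested alone, 1496 passed (27.1%), against 22.2% of the members, the same 2. Of these genes 1169 were higher and 327 of the 5519 lower in SN, and both members called were lower. Log2 fold changes, given throughout as SN minus NSN on log2(FPKM + 0.5), ran from -0.70 for Nlrp4c to 0.20 for Nlrp9c, with a median of -0.10 over the 9 members and of 0.14 over all genes tested. Relative to that all-gene median, 7 of the 9 members lay below it. The libraries did not overlap between the configurations for 7 members, 4 of them lower in SN and 3 higher. The 3 higher were Nlrp9c, Nlrp4e and Nlrp4a, the last of which turned lower with median scaling. Of all genes tested, 62.6% did not overlap either, with 2079 of the 11672 lower in SN and 5232 higher. With 2 libraries against 2, an exact permutation test cannot give a p below 0.333, so calls rest on the spread that limma shares across genes. They also rest on single libraries: without NSN replicate 1 limma called none of all genes tested (2278 at an unadjusted p under 0.05), and without SN replicate 2 it called 12 (2680 at that p), none of them a member. Without NSN replicate 2 it called 1680, with both members among them, and without SN replicate 1 it called 153, with Nlrp14 among them.

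Small changes depended on the reference level. Over all genes, 695 passed with higher and 231 with lower values in SN on the deposited scale (75.1% higher). When each library was divided by its median ratio to the others (median scaling), the all-gene median moved to 0.00 and the calls became 67 higher and 167 lower (28.6% higher). Quantile normalization gave 74 higher and 156 lower (32.2% higher). The number of calls also depended on the method, since limma voom on recovered read pairs gave 1763 higher and 534 lower, and 741 higher and 962 lower (43.5% higher) with median scaling. The median of the members was -0.25 with median scaling and -0.04 with quantile normalization. Nlrp4a turned from 0.11 to -0.04 with median scaling, while the other 8 members kept their direction under both.

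**Figure D1:**
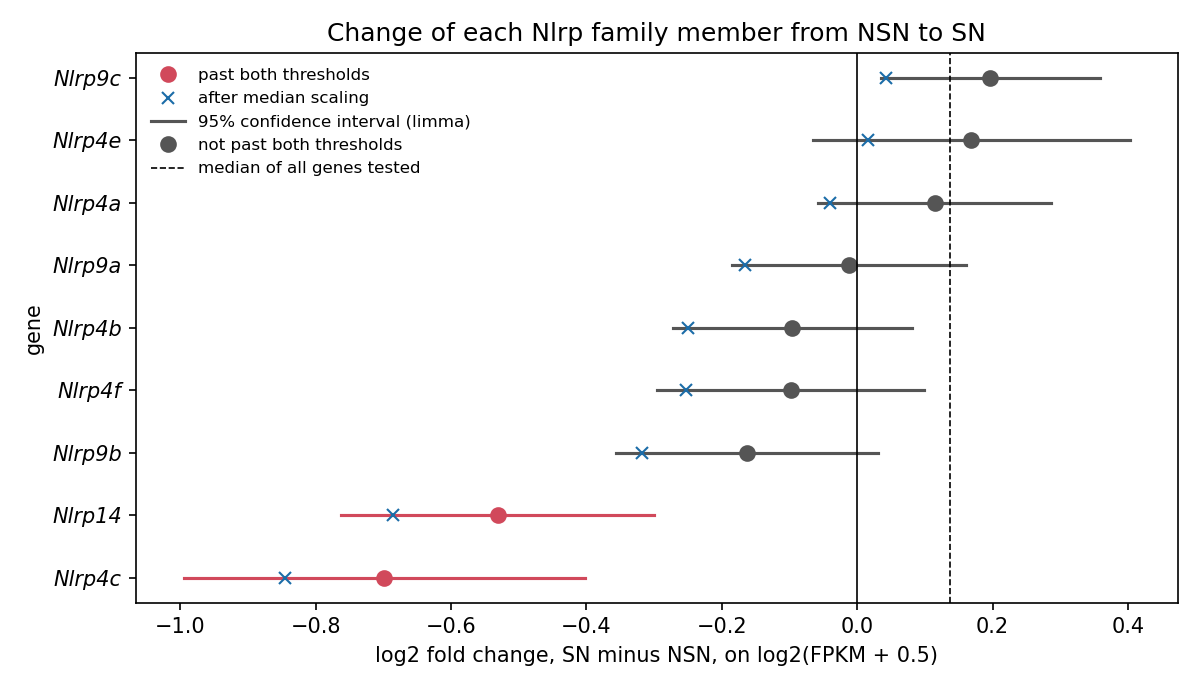
Log2 fold change (SN minus NSN, horizontal axis) of each member on log2(FPKM + 0.5), with its 95% confidence interval from limma (2 libraries per configuration); red marks Nlrp14 and Nlrp4c, the members past both thresholds, and crosses give the value after median scaling. The intervals of Nlrp14 and Nlrp4c lie wholly below 0 and below the all-gene median of 0.14 (dashed), and with median scaling Nlrp4a crosses to -0.04.

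Nlrp14, which oocytes need for female fertility and whose protein has been linked to UHRF1 and to the mitochondrial calcium exchanger SLC8B1, was by far the most abundant member. Its FPKM was 5610 and 5075 in NSN and 3983 and 3422 in SN. The configurations did not overlap, SN being lower, and the transcript ranked 5 and 6 among all listed genes in NSN against 8 and 13 in SN. The mean fell from 5343 ± 379 (SD, n = 2) to 3703 ± 396 (SD, n = 2), to 69.3% of the NSN level. The log2 fold change was -0.53 (SE 0.10, 95% confidence interval -0.76 to -0.30), with an adjusted p of 0.0386 from limma. Between 217868 and 345461 read pairs stand behind each value. Read pairs amplified by PCR are not independent molecules, so their number does not measure the counting error of molecules. The call was lost in 7 of 16 alternatives (adjusted p from limma 0.000792 to 0.173 over the 16), among them median scaling (0.0504, with a larger log2 fold change of -0.69), quantile normalization (0.106) and the fits without NSN replicate 1 (0.173) or SN replicate 2 (0.0787). The value stayed negative in all 16, from -0.69 to -0.31.

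The family's RNA was mostly Nlrp14. The summed FPKM of the 9 members was 7685 and 7050 in NSN and 5965 and 5437 in SN. Nlrp14 made up 73.0% and 72.0% of that sum in NSN and 66.8% and 62.9% in SN. In read pairs, the 9 genes took 2.72% and 2.50% of the recovered totals in NSN and 2.11% and 1.93% in SN. Without Nlrp14, the sum of the other 8 members was 2075 and 1976 in NSN and 1983 and 2015 in SN, so the configurations overlapped. With median scaling those sums were 2240 and 2026 in NSN and 1867 and 1912 in SN, and did not overlap. A ratio within a library is untouched by scaling. Nlrp14 stood at 2.70 and 2.57 times the sum of the other 8 in NSN and at 2.01 and 1.70 times in SN (two-sided exact permutation p = 0.333, the smallest this design allows). FPKM are shares of a library, so RNA per oocyte was not measured, and in pooled oocytes fewer cells with a transcript and less of it per cell cannot be told apart.

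Nlrp4c was the least abundant member. Its FPKM was 11.4 and 11.1 in NSN and 7.38 and 6.19 in SN. The NSN values lay close together and above both SN values. The mean fell from 11.3 ± 0.196 (SD, n = 2) to 6.78 ± 0.840 (SD, n = 2), to 60.1% of the NSN level. This was the largest fold among the 9 members, with a log2 fold change of -0.70 (SE 0.12, 95% confidence interval -0.99 to -0.40) and an adjusted p of 0.0375 from limma. The values rest on 780 and 783 read pairs in NSN and 494 and 437 in SN. In 5 of 16 alternatives the call was lost, including the fits without NSN replicate 1 (adjusted p from limma 0.0953), without SN replicate 1 (0.0584) and without SN replicate 2 (0.108), over a range of 0.00159 to 0.108, and the value stayed between -0.89 and -0.58.

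The other Nlrp4 genes did not pass the thresholds. Nlrp4f, whose protein has been tied to the subcortical maternal complex, had an FPKM of 579 and 525 in NSN and 495 and 536 in SN. Its libraries overlapped, and the log2 fold change was -0.10 (95% confidence interval -0.30 to 0.10, adjusted p from limma 0.444), or -0.25 with median scaling. Nlrp4b had an FPKM of 297 and 287 in NSN and 283 and 264 in SN, with a log2 fold change of -0.10 (95% confidence interval -0.27 to 0.08, adjusted p from limma 0.403), or -0.25 with median scaling. Nlrp4a lay on the other side of 0, with an FPKM of 163 and 165 in NSN and 173 and 181 in SN. Its log2 fold change of 0.11 (95% confidence interval -0.06 to 0.29, adjusted p from limma 0.316) became -0.04 with median scaling. Nlrp4e, which has been linked to preimplantation development, had an FPKM of 37.2 and 41.2 in NSN and 46.4 and 41.9 in SN. The nearest libraries of the configurations were thus 41.2 and 41.9, and the log2 fold change was 0.17 (95% confidence interval -0.07 to 0.40, adjusted p from limma 0.280), or 0.016 with median scaling. These intervals leave room for changes of up to 0.40 on the log2 scale, so a missed threshold does not show equal levels.

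Against its nearest relatives in sequence, Nlrp4c stood at 0.307 and 0.270 times the FPKM of Nlrp4e in NSN and at 0.159 and 0.148 times in SN. Against Nlrp4a, the ratio was 0.0701 and 0.0677 in NSN and 0.0426 and 0.0341 in SN. In neither ratio did the configurations overlap, and each gave a two-sided exact permutation p of 0.333, the smallest possible. These pairs were chosen after the values were seen. The ratio to Nlrp4b was 0.0384 and 0.0388 in NSN and 0.0261 and 0.0234 in SN, with the same exact permutation p of 0.333.

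The Nlrp9 genes form a second set of near relatives, of which Nlrp9b is known from intestinal epithelium as a sensor of viral RNA. None passed the thresholds. Nlrp9c had an FPKM of 369 and 380 in NSN and 431 and 427 in SN. Its libraries of each configuration lay close together and did not overlap with those of the other, and the log2 fold change of 0.20 (95% confidence interval 0.04 to 0.36) was the highest of the 9. The adjusted p from limma was 0.106 and the fold 1.15, under the threshold of 1.2, and with median scaling the log2 fold change was 0.042. Nlrp9b went the other way, with an FPKM of 368 and 331 in NSN and 305 and 319 in SN. Its log2 fold change was -0.16 (95% confidence interval -0.36 to 0.03, adjusted p from limma 0.216), and with limma voom on recovered read pairs and median scaling it passed at -0.32 (adjusted p 0.0360). Across the 16 alternatives its adjusted p from limma ranged from 0.0360 to 0.706. Nlrp9a had an FPKM of 249 and 235 in NSN and 242 and 238 in SN, which overlapped. Its log2 fold change was -0.01 (95% confidence interval -0.18 to 0.16, adjusted p from limma 0.928), which turned to 0.030 without NSN replicate 1 and was -0.17 with median scaling.

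**Figure D2:**
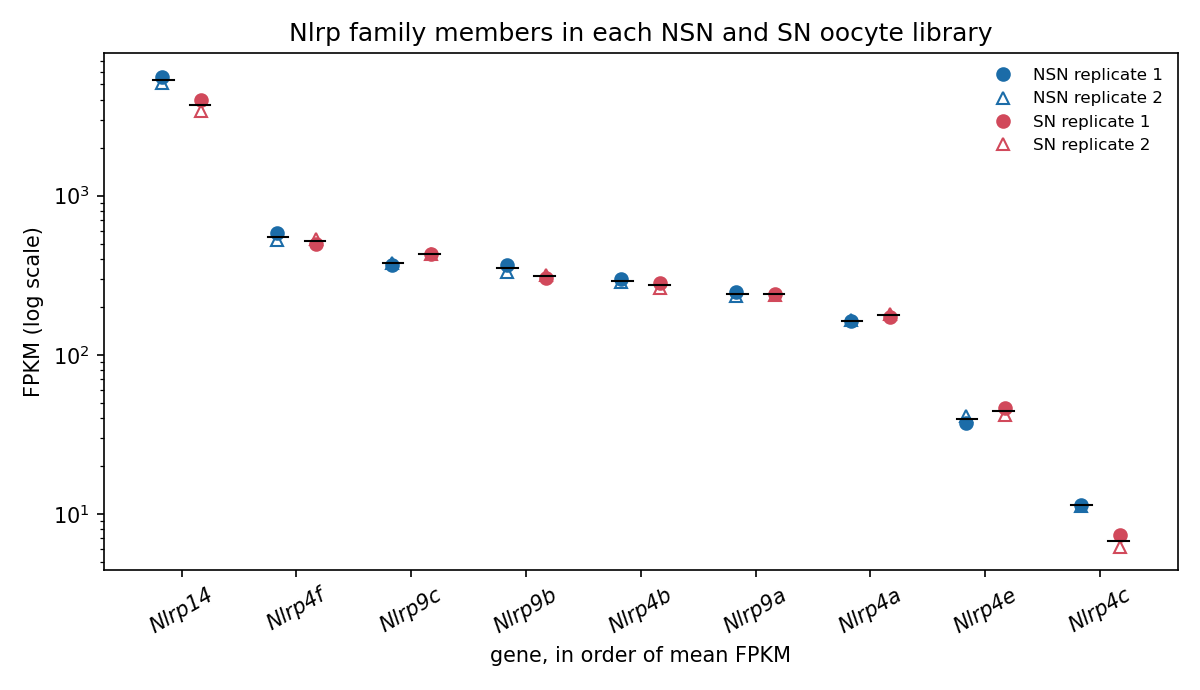
FPKM (log scale, vertical axis) of the 9 members in each library, in order of mean FPKM; blue marks NSN and red SN, filled circles replicate 1, open triangles replicate 2, and bars the mean of 2 libraries. Nlrp14 lies at 3422 to 5610 and every other member below 580, and the SN points of Nlrp14 and Nlrp4c lie below their NSN points.

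The order of the levels was the same in all 4 libraries. From the top it ran Nlrp14, Nlrp4f, Nlrp9c, Nlrp9b, Nlrp4b, Nlrp9a, Nlrp4a, Nlrp4e and Nlrp4c, with mean FPKM from 4523 down to 9.03. Gaps between neighbours were uneven. Nlrp14 stood 8.47 times above Nlrp4f, Nlrp4a 4.09 times above Nlrp4e and Nlrp4e 4.62 times above Nlrp4c, whereas the 6 members from Nlrp4f to Nlrp4a followed each other at 1.17 to 1.41 times. The lowest value of Nlrp9c (369.1) lay just above the highest of Nlrp9b (368.2), in the same library. These levels are per length, and the length used differs from later annotation for some. The length recovered from the FPKM was 3319 bases for Nlrp9c, where GENCODE vM39 has 5935 bases of exon, and 3326 against 4491 bases for Nlrp4b, but 3537 against 3581 for Nlrp14. The same length applies in SN and NSN.

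On GRCm39, 8 of the 9 members lie on chromosome 7 and Nlrp4f lies on chromosome 13 (chr13:65324923-65353802, minus strand). Nlrp14 lies apart from the rest, at chr7:106766153-106797309 on the plus strand, with 11 exons of which 10 are coding. Nlrp4c (chr7:6048160-6108149) and Nlrp4b (chr7:10421716-10464095) are the first members from the start of the chromosome, followed by Nlrp9b (chr7:19725308-19807231) and Nlrp4e (chr7:23000617-23061702), all on the plus strand. Nlrp9c (chr7:26021898-26103125, minus strand), Nlrp4a (chr7:26134538-26175567) and Nlrp9a (chr7:26234448-26275040) are neighbours. Within this trio the log2 fold changes were 0.20, 0.11 and -0.01, or 0.042, -0.04 and -0.17 with median scaling. Nlrp4e, at 0.17 (0.016 with median scaling), lies next to Nlrp5 (chr7:23085314-23141347), at -0.57.

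**Figure D3:**
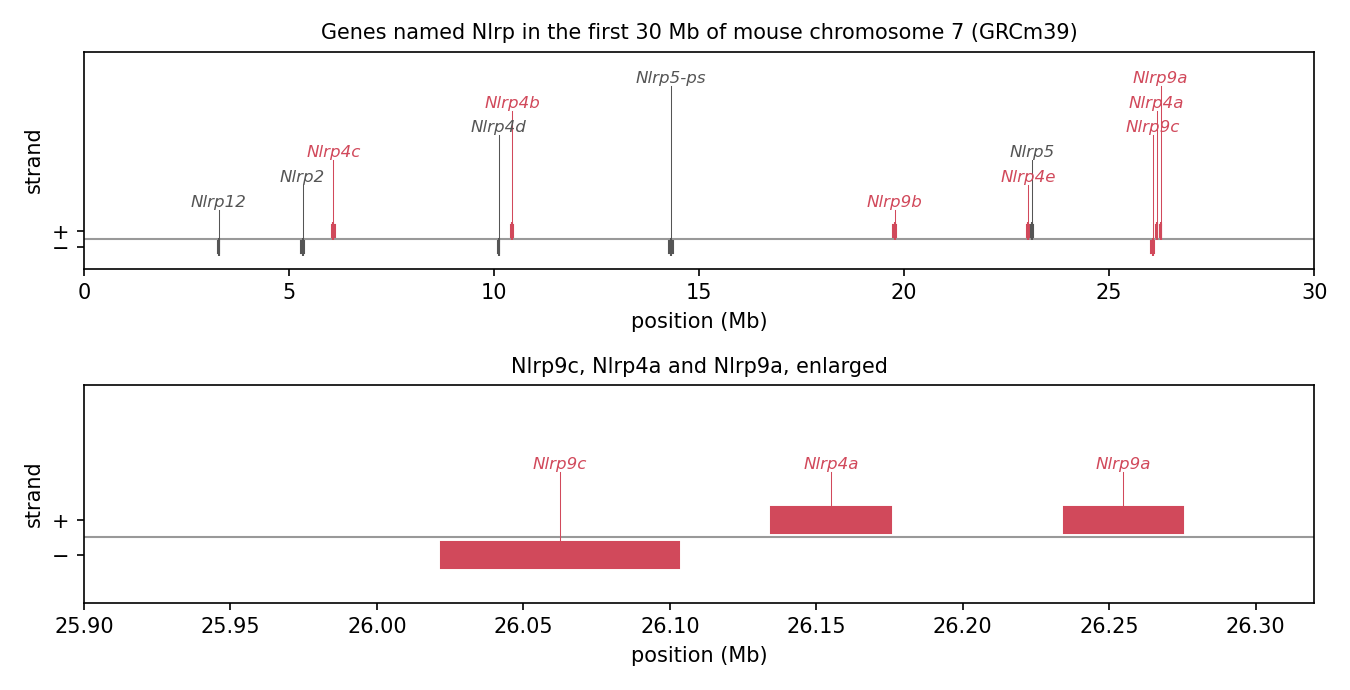
Genes named Nlrp along the first 30 Mb of chromosome 7 (upper panel) and in the stretch that holds Nlrp9c, Nlrp4a and Nlrp9a (lower panel), to scale in Mb on GRCm39, with the strand on the vertical axis; the members are in red and other genes in grey. The 7 members drawn lie between 6048160 and 26275040, and Nlrp14 lies outside the range, at 106766153.

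Members share sequence to different degrees. Coding sequences of Nlrp4c and Nlrp4e were 93.9% identical over 2934 aligned bases, those of Nlrp9a and Nlrp9c 87.9% and those of Nlrp9a and Nlrp9b 85.0%, whereas Nlrp14 was at most 63.1% identical to any other member. Of all 50-base windows of the annotated transcript, 36.9% of those of Nlrp4e also occur in another gene, mostly in the pseudogenes Gm16443, Gm8486, Gm8685, Gm8728 and Gm4541 on the same chromosome, and 11.9% of those of Nlrp4c do. For the Nlrp9 genes the share was 4.99% to 7.68%, for Nlrp4f 6.78%, for Nlrp4a 3.20%, and for Nlrp4b and Nlrp14 no window was shared. At 100 bases, 11.5% of the windows of Nlrp4e and 0.939% of those of Nlrp4c were shared. The authors counted primary alignments with a mapping quality of at least 10, and the part of shared stretches in the levels of Nlrp4e and Nlrp4c was not tested. Annotated exons of other genes cover 3.56% of the exonic bases of Nlrp9b, and counting took no account of strand. They cover none of those of the other 8 members.

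Promoter windows, 250 bases before to 50 after the start, were taken from RefSeq (GRCm38.p6) for the members that matched by symbol, which were 8 of 9 with 10 windows; Nlrp14 did not match. Each window occurs once, letter for letter, on its own chromosome of GRCm39, and the positions given are on that build. Other chromosomes were not searched. They are shown for Nlrp4c, Nlrp4a and Nlrp4b since these resemble each other and only Nlrp4c of them passed both thresholds. Nlrp4b was also lower in SN, without passing. Log2 fold changes were -0.70 for Nlrp4c, 0.11 for Nlrp4a and -0.10 for Nlrp4b, or -0.84, -0.04 and -0.25 with median scaling. Nlrp4a and Nlrp4b have 2 windows each, of which those with the longest alignments to Nlrp4c are shown. The other window of Nlrp4a, at its annotated start (chr7:26134288-26134587), aligned with that of Nlrp4c over only 24 bases. The window of Nlrp4c aligned with the one shown for Nlrp4a at 80.8% identity over 260 bases and with that of Nlrp4b at 81.6% over 256 bases, and those of Nlrp4b and Nlrp4a aligned at 81.8% over 280 bases. Capitals mark CANNTG, the letters that basic helix-loop-helix factors such as FIGLA bind, and TAATTG, those bound by the homeobox factor NOBOX, on either strand. Each of the 3 windows holds CACATG followed by CAGCTG, with 32 bases between their first letters in Nlrp4c and 33 in the others, and none holds TAATTG. Of the 27025 promoters of the table, 72.1% hold CANNTG and 8.15% TAATTG, so these are matches of letters, not sites. The windows are at chr7:6047910-6048209 for Nlrp4c, chr7:26134789-26135088 for Nlrp4a and chr7:10421470-10421769 for Nlrp4b, all on the plus strand, 5′ to 3′.
Nlrp4c: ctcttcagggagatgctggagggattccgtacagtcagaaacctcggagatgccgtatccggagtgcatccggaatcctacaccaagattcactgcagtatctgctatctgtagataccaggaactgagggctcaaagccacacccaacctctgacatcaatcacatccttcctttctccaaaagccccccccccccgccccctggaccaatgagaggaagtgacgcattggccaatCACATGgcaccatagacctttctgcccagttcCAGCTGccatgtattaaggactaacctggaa
Nlrp4a: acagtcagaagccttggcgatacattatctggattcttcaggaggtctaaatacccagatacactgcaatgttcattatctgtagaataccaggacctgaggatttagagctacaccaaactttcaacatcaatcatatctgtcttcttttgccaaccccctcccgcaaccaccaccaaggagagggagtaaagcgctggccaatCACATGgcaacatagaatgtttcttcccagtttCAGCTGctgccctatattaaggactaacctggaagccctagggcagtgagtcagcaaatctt
Nlrp4b: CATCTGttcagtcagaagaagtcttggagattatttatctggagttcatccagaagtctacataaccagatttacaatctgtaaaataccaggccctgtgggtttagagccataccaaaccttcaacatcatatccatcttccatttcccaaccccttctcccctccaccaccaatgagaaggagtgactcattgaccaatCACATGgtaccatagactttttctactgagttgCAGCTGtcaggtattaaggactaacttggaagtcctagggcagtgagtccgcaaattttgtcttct

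Nlrp9c and Nlrp9a have windows that were 97.3% identical over 222 aligned bases, and these are shown for that closeness. The windows lie at chr7:26103076-26103375 on the minus strand for Nlrp9c and chr7:26234198-26234497 on the plus strand for Nlrp9a, and the aligned stretches are shown 5′ to 3′ with the same motifs in capitals. Both hold the same CAGGTG, and TAATTG, read on either strand, is found only in that of Nlrp9a. Nlrp9a stood at 0.675 and 0.618 times the FPKM of Nlrp9c in NSN and at 0.560 and 0.558 times in SN (two-sided exact permutation p = 0.333, the smallest possible).
Nlrp9c: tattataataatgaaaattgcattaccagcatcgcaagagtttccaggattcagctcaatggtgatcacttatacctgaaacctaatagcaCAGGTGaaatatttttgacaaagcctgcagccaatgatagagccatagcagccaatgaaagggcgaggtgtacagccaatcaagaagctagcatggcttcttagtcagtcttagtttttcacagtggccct
Nlrp9a: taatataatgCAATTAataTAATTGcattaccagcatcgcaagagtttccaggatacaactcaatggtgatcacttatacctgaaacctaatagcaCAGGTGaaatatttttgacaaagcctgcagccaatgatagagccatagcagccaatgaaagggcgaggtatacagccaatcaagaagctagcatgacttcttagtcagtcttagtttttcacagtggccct

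Of 22 other genes of the NLR family, 11 are listed and 6 reached the mean FPKM of 0.5 required for testing. Their median log2 fold change was 0.06. Of these 6, 1 passed both thresholds, Nlrp5 (16.7%, against 7.93% of all genes tested). In a separate fit to all genes whose mean FPKM was 5 or more, 27.1% of those genes passed. Nlrp5 had an FPKM of 935 and 818 in NSN and 643 and 538 in SN. Its log2 fold change was -0.57 (SE 0.11), with an adjusted p of 0.0410 from limma. Its call was lost in 7 of 16 alternatives, among them median scaling (adjusted p from limma 0.0503, in a range of 0.00140 to 0.132), where the log2 fold change was larger, at -0.73, and it lay between -0.73 and -0.44 in all 16. Nlrp14 and Nlrp5 kept nearly the same proportion in every library, since Nlrp14 stood at 6.002 and 6.20 times Nlrp5 in NSN and at 6.20 and 6.36 times in SN (two-sided exact permutation p = 0.667). Nlrp2 (278 and 284 in NSN, 265 and 239 in SN) and Nlrp4g (366 and 365 in NSN, 420 and 394 in SN), annotated as a lncRNA or pseudogene, did not pass. With median scaling Nlrp4g lay at 0.00 and Nlrp2 went from -0.16 to -0.31, and Nlrp2 passed in 1 of 16 alternatives, limma voom with median scaling. Nlrc4, named after its values were seen, was at 8.95 and 8.95 in NSN and 11.7 and 10.8 in SN. It was higher in SN without overlap but did not pass (log2 fold change 0.31, the highest of the list, adjusted p from limma 0.106). Of the 6 tested, 3 had positive and 3 negative values. The genes not listed are Nlrp1a, Nlrp1b and Nlrp3, whose proteins form inflammasomes, and Nlrp4d, Nlrp12, Nlrx1, Nlrc3, Nlrc5, Ciita, Naip2 and Naip5.

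In the subcortical maternal complex, 3 of 7 genes fell in SN and none rose, with a median log2 fold change of -0.33. The share called was 42.9%, against 7.93% of all genes tested. Among all genes whose mean FPKM was 5 or more, tested alone, the share was 27.1%. That fit adjusts p over its own genes, and Zbed3 passed in it too, so 42.9% and 27.1% are from different fits. Tle6, a scaffold of the complex, was at 2685 and 2381 in NSN and 1382 and 1192 in SN (log2 fold change -0.98, adjusted p from limma 0.0364). Padi6, needed for the cytoplasmic lattices, was at 4387 and 4170 in NSN and 2854 and 2267 in SN (log2 fold change -0.75, adjusted p from limma 0.0364), and Nlrp5 was the other. Khdc3, chosen for mention after its values were seen, was at 98.5 and 68.8 in NSN and 109 and 160.3 in SN (log2 fold change 0.68, 95% confidence interval 0.15 to 1.21, adjusted p from limma 0.0963). It was higher in SN without overlap but did not pass. Padi6 was not called with quantile normalization, where its log2 fold change was -0.60 (adjusted p from limma 0.0652, in a range of 0.000360 to 0.0960). Zbed3, the most abundant gene of the list, was at 6399 and 6031 in NSN and 4680 and 5199 in SN and missed the threshold (log2 fold change -0.33, adjusted p from limma 0.0531). With median scaling its log2 fold change was -0.49, and quantile normalization sets it to 0.00 since it ranked 4 in all 4 libraries. Of the 16 alternatives, Zbed3 passed in 4, Padi6 in 12 and Tle6 in 13. Nlrp14 lay between Zbed3 and Tle6 in every library, and the other 8 members were lower than Nlrp5 in every library.

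Of 9 genes of inflammasome partners and outputs 4 are listed and 3 were tested, with a median log2 fold change of 0.37. None passed limma's thresholds, and 1, Txnip, had an unadjusted p under 0.05. Txnip, a regulator of thioredoxin that can bind NLRP3, had an FPKM of 496 and 444 in NSN and 389 and 386 in SN. Its log2 fold change was -0.28 (-0.43 with median scaling), against the sign of the list's median, and it passed both thresholds in 4 of 16 alternatives. Casp1, the protease that inflammasomes activate, had an FPKM between 0.263 and 0.880, and Nek7, a partner of NLRP3, between 1.01 and 1.88, and the list's positive median rests on these 2 genes. The adaptor gene Pycard, the cytokine genes Il1b and Il18, and Casp4 and Aim2 are not listed.

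Among oocyte transcription factors, 1 of 7 tested fell in SN (14.3%, against 7.93% of all genes tested) and none rose. Their median log2 fold change was -0.27, and Sohlh1 is not listed. In a separate fit to all genes whose mean FPKM was 5 or more, 27.1% of those genes passed in either direction. Nobox, Lhx8 and Gtf2a1l all passed in that fit. Nobox was at 346 and 285 in NSN and 165 and 163 in SN (log2 fold change -0.93, adjusted p from limma 0.0364). Its call held in 12 of 16 alternatives. Lhx8 (150 and 137 in NSN, 115 and 118 in SN) and Gtf2a1l (68.4 and 55.6 in NSN, 45.2 and 42.0 in SN) missed the threshold with adjusted p of 0.0694 and 0.0520 from limma, and passed in 4 and 5 of 16 alternatives. With median scaling the log2 fold change of Lhx8 went from -0.29 to -0.45 and that of Gtf2a1l from -0.50 to -0.65. Figla, named after its values were seen since its motif was searched, was at 19.5 and 21.4 in NSN and 18.4 and 18.3 in SN and did not pass (log2 fold change -0.15, adjusted p from limma 0.326). The 3 tested genes of proteins linked to NLRP14, Uhrf1, Dnmt1 and Dppa3, did not pass, with log2 fold changes of -0.09, 0.12 and -0.13, or -0.24, -0.03 and -0.28 with median scaling, and none had an unadjusted p under 0.05 in limma. Uhrf1, a reader of hemimethylated DNA, was at 101 and 96.1 in NSN and 93.3 and 92.0 in SN, Dnmt1 at 182 and 190 against 198 and 207, and Dppa3 at 374 and 396 against 346 and 359. Dppa3 passed both thresholds in 1 of 16 alternatives, limma voom with median scaling, and Slc8b1 is not listed.

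All 12 oocyte markers are listed, and their summed FPKM was 20354 and 19259 in NSN and 13544 and 12672 in SN, led by Zp3. Of these markers 8 fell in SN and none rose. The share called was 66.7%, against 7.93% of all genes tested. Among all genes whose mean FPKM was 5 or more, tested alone, the share was 27.1%. That fit adjusts p over its own genes, so 66.7% and 27.1% are from different fits. The 8 were Zp1, Zp2, Zp3, Gdf9, Bmp15, Ddx4, Nobox and Mos, with log2 fold changes from -1.07 for Gdf9 to -0.41 for Zp2. The median over the 12 was -0.46. Kit, the 1 marker with a positive value and named for that after it was seen, was at 16.0 and 17.2 in NSN and 20.1 and 20.7 in SN, without overlap, and did not pass (log2 fold change 0.29, adjusted p from limma 0.101). Zp3 had an FPKM of 7281 and 7063 in NSN and 5425 and 5208 in SN, and quantile normalization, under which it ranked alike in all libraries, put its log2 fold change at 0.00. With median scaling Zp2, Ddx4 and Mos were not called although their log2 fold changes were larger, at -0.57, -0.89 and -0.64, and with quantile normalization these and Zp3 were not called. Of the 16 alternatives, Mos passed in 7, Zp2 and Ddx4 in 8, Zp3 in 9, Zp1, Bmp15 and Nobox in 12 and Gdf9 in 13. Relative to this list Nlrp14 stood at 27.6% and 26.4% of the markers' sum in NSN and at 29.4% and 27.0% in SN, so the configurations overlapped (two-sided exact permutation p = 0.667). Nlrp4c stood at 0.0561% and 0.0579% of it in NSN and 0.0545% and 0.0489% in SN. The part of the markers' shift in the changes of Nlrp14 and Nlrp4c was not tested. Of 12 granulosa and cumulus markers 7 are listed, with a summed FPKM of 9.41 and 13.6 in NSN and 13.8 and 13.6 in SN, led by Cyp19a1, which makes estrogen (5.81 and 8.06 in NSN, 8.38 and 8.22 in SN), with Kitl (1.32 and 1.73 in NSN, 1.72 and 1.83 in SN) and Nr5a2 (1.15 and 1.47 in NSN, 1.94 and 1.78 in SN) next. Inha, the other gene tested and named after its values were seen, went the other way (log2 fold change -0.35). It was at 0.389 and 1.44 in NSN and 0.437 and 0.640 in SN, so the configurations overlapped. Amh, Amhr2, Foxl2, Ptx3 and Tnfaip6 are not listed, and the median over the 4 tested was 0.22. Of 7 immune markers 2 are listed, at a sum of 0.665 and 0.702 in NSN and 0.844 and 1.10 in SN. The macrophage gene Cd68, the 1 gene tested (log2 fold change 0.23, or 0.14 with median scaling), led over Csf1r. Ptprc, Adgre1, Lyz2, C1qa and Itgam are not listed. No listed gene of either list was at 0 in any library, and none of their 5 tested genes passed limma's thresholds or had an unadjusted p under 0.05.

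Genes whose pattern over the 4 libraries was most like that of Nlrp14 were sought among 5510 genes whose mean FPKM was 5 or more, by the distance between log2(FPKM + 0.5) values centred on each gene's mean. The nearest were Oas1c (distance 0.0330), Actg1 (0.0379), Gpr19 (0.0425) and St13 (0.0521). Oas1c, an oligoadenylate synthetase gene, had an FPKM of 1375 and 1251 in NSN and 967 and 857 in SN, and its log2 fold change was -0.53. Actg1, which encodes a cytoplasmic actin, was at 30.1 and 27.0 in NSN and 20.6 and 18.2 in SN.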

How the data were processed

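RNA from 4 Smart-seq2 libraries of GV oocytes was analysed, 2 NSN and 2 SN, grouped by their labels. Per the labels, the authors used Trim Galore 0.6.10 for trimming, HISAT2 and GRCm39 for alignment and featureCounts on GENCODE exons for counting, and deposited FPKM. Their comparison used DESeq2 on counts that were not used here. From the FPKM, library totals were recovered with 5 mitochondrial tRNA genes of known length, and whole read pairs (within 1e-04) for 99.86% of genes. Values were taken as log2(FPKM + 0.5) for genes whose mean FPKM reached 0.5 and compared with limma 3.58.1 in R 4.3.3 (lmFit, eBayes with a variance trend, two-sided), with Benjamini-Hochberg adjustment over all genes tested. This scale understates the change of low genes. Alternatives varied the pseudocount (0.1 or 1), the genes included, scaling, the variance trend, thresholds, a replicate block, limma voom on recovered read pairs, and each library left out. Sequences were compared with Python 3.11.15 and biopython 1.88. Named are the 9 members, of each list the genes past both thresholds and the 3 of highest mean FPKM, genes not listed, and the 4 genes most like Nlrp14. Figla, Khdc3, Kit, Inha and Nlrc4 fall outside this rule. Members and lists were chosen with earlier results of these data known.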

Additional observations from a re-analysis of the deposited data

How the results depend on the processing

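Under 16 alternatives, 2 members were past both thresholds in the reported comparison and 0 to 3 elsewhere. The count was 0 with all listed genes and 0 without a variance trend, settings in which limma called no gene at all although 3 and 2 members had an unadjusted p under 0.05. It was 1 (Nlrp4c) with median scaling, quantile normalization and a fold of at least 1.5, and 3 with limma voom and median scaling. Leaving out 1 library, with the lone library assumed to vary like the other group, gave 0 to 2: 0 without NSN replicate 1 or SN replicate 2 (2 and 3 members at an unadjusted p under 0.05), 1 without SN replicate 1 and 2 without NSN replicate 2. The sources used here do not say whether NSN and SN replicates of the same number share an origin. The correlation of their deviations across genes was -0.0703, which cannot settle this. A replicate block kept both members past the thresholds, a count of 2, while calls over all genes went from 926 to 422. The members' median of -0.10 was -0.25 with median scaling and with voom and median scaling, -0.045 with quantile normalization, and -0.12 to -0.027 with 1 library left out. Nlrp4a was -0.040 with median scaling and with voom and median scaling, and Nlrp9a ran from -0.054 to 0.030 with 1 library left out. The other 7 members kept their direction in all 16 alternatives. Among these, with 1 library left out, Nlrp4f ran from -0.17 to -0.027 and Nlrp4b from -0.14 to -0.048. Nlrp9b ran from -0.24 to -0.087 and Nlrp4e from 0.096 to 0.24. The cause of these shifts was not tested, except that a higher fold can only remove calls. Each member had 437 or more read pairs in each library, and whether depth or the number of libraries limits these values more was not tested.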
